A study of Rattus norvegicus with 28 samples.

Results

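Hippocampal gene expression of injured rats given Zoloft (sertraline, a selective blocker of the serotonin transporter) was compared with that of sham-injured rats. The arrays were chosen by their titles: the 3 gene expression arrays titled TBI+Zoloft and the 2 titled Sham, 5 of the 28 arrays of the series and 5 of its 14 gene expression arrays. All rats were adult male Sprague-Dawley rats. TBI+Zoloft rats had severe fluid percussion traumatic brain injury (TBI), in which a pulse of fluid strikes the exposed dura, and received the drug 1 h later. Sham rats had sham injury, and the 3 rats of the untreated TBI group had the injury and no antidepressant, with vehicle in its place per the study's methods. In every group the whole hippocampus was taken 24 h after injury or sham injury, 1 rat per array. The comparison asks which of the pathways that injury changes were still changed in rats given Zoloft, and which lay nearer Sham than in untreated TBI.

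Within a day of a brain contusion or percussion injury, astrocytes become reactive and raise intermediate filaments and acute-phase proteins, resident microglia are activated, and damaged tissue releases chemokines that draw in neutrophils and monocytes. Those cells, with the vessel wall, release proteases, complement and cytokines. Dividing microglia, endothelium and glial precursors add cell cycle transcripts, while transcripts of neurons and myelinating cells may fall as cells are lost. The tissue was bulk hippocampus, so that fewer cells of a type and less RNA per cell cannot be told apart in any fall described here.

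Each value below is a log2 level, the log2 of a probe's brightness over the array's own 75th percentile (taken among probes that exceeded background there), so that 0 is a bright transcript and -6 is close to the background. A difference is a difference of group means on that scale, with its standard error (SE). Differences between groups were called at an adjusted p under 0.05 with limma, which pooled the spread of all 5 groups. Of 17322 probes tested, 1031 were called between TBI+Zoloft and Sham, 5.95% of them, with 720 higher (4.16%) and 311 lower (1.80%) under Zoloft. Between TBI+Zoloft and TBI, 239 were called (1.38%), 201 higher (1.16%) and 38 lower (0.219%). For the injury alone, TBI vs. Sham, 2879 were called (16.6%), 1438 higher (8.30%) and 1441 lower (8.32%). The split of higher and lower probes in TBI+Zoloft vs. Sham moved with the scaling: quantile normalization gave 1179 higher and 999 lower, and normexp background correction gave 724 higher and 847 lower. With 1 probe per gene, 10220 genes were tested, of which 507 were higher and 157 lower in TBI+Zoloft than in Sham (664 called, 6.50%). Between TBI+Zoloft and TBI 78 genes were called (0.763%), 61 higher and 17 lower. In TBI vs. Sham 1525 were called (14.9%), 947 higher and 578 lower. The counts of list members below stand beside these shares. At 0.763% most lists would hold no called gene, so that a list with none called between TBI+Zoloft and TBI says little about that list. TBI+Zoloft vs. Sham and TBI vs. Sham share the Sham arrays, and TBI+Zoloft vs. TBI shares its arrays with both, so that the values of the 3 comparisons are set side by side and their likeness is not a result.

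The other gene expression arrays were of injured rats given imipramine (3) or Prozac (3) and are used beside single results. The 3 Zoloft arrays lay on 1 slide with other drug-treated rats, the TBI arrays on another slide and the Sham arrays on a slide of their own. Slide and group cannot be told apart in TBI+Zoloft vs. Sham or in TBI vs. Sham. In TBI+Zoloft vs. TBI the slides are linked only by Prozac replicate 1, which lay on the slide of the TBI arrays. The rule for nearer-Sham genes below uses TBI vs. Sham and TBI+Zoloft vs. TBI, so that it carries this limit. TBI+Zoloft replicate 3 stood apart from the other Zoloft arrays, with a correlation across probes of 0.973 and 0.978 with them against 0.991 between replicates 1 and 2. It was included throughout, and results that rest on it are given with and without it. Leaving out Sham replicate 1 took the 1031 calls to 232 and leaving out Sham replicate 2 took them to 440, while leaving out Zoloft replicate 1, 2 or 3 left 955, 733 and 928. The TBI+Zoloft vs. TBI calls were more fragile: 28 were left without TBI replicate 1, 29 without TBI replicate 2, 89 without Zoloft replicate 1, 29 without Zoloft replicate 2 and 1 without Zoloft replicate 3. Without TBI replicate 3 the count stayed close to the 239 of all arrays.

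**Figure D1:**
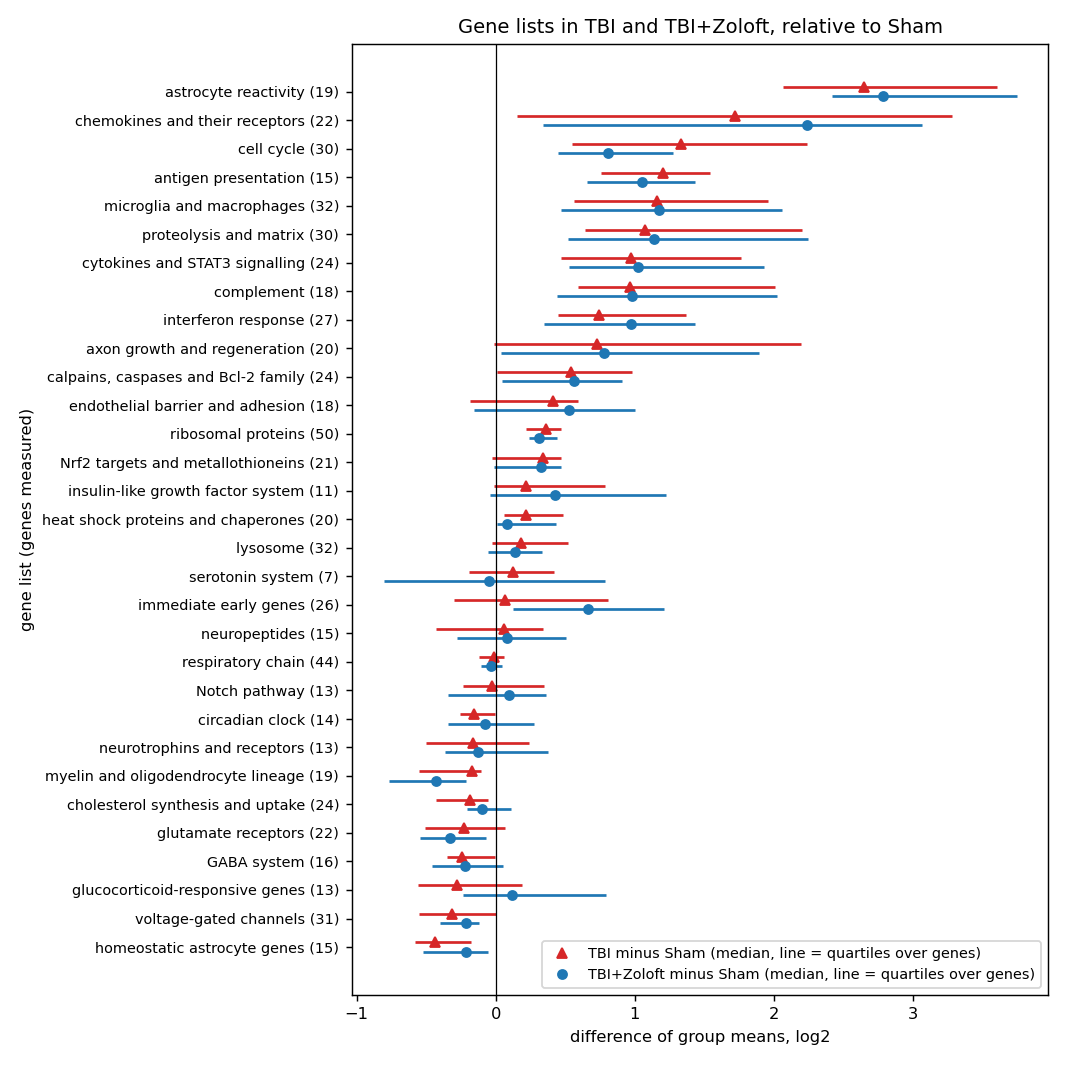
Median difference of group means (log2, x axis) over the measured genes of each gene list (y axis, with the number of genes measured), for TBI vs. Sham (triangles) and TBI+Zoloft vs. Sham (circles), with lines between the lower and upper quartiles over genes. The astrocyte reactivity list lay at 2.78 against Sham under Zoloft and at 2.65 in untreated TBI, whereas the cell cycle list lay at 0.81 and 1.33.

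Genes of astrocyte reactivity, the filaments, acute-phase proteins and adhesion molecules that astrocytes raise around an injury, were the list with the largest median rise under Zoloft among the 31 pathway lists. Of 19 measured members, 15 rose, none fell and 4 did not pass the test in TBI+Zoloft vs. Sham. Their median difference was 2.78 beside 0.01 over all 10220 genes. In TBI vs. Sham, 16 rose and the median was 2.65. Between TBI+Zoloft and TBI 0 of the 19 passed limma's test, with a median of 0.17. The array medians, as differences from the Sham mean, were 2.49, 2.24 and 3.79 for Zoloft replicates 1 to 3, against 2.26, 3.04 and 2.56 for the TBI arrays, so that replicate 3 was the highest of the 6. The count of 15 became 12 without Sham replicate 1, 13 without Sham replicate 2 and 14 without Zoloft replicate 3.

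Lcn2, which encodes the iron-carrier-binding acute-phase protein lipocalin 2, was at 3.62, 3.13 and 4.77 on the Zoloft arrays, 3.45, 3.71 and 1.85 on the TBI arrays, and -6.16 and -1.96 on the Sham arrays. All injured arrays lay above both Sham arrays, and the Sham arrays differed widely between themselves, with Sham replicate 1 not well above background. The difference from Sham was 7.90 ± 0.92 (SE; limma, adjusted p = 0.000668), and that from TBI was 0.84 ± 0.83. Serpina3n, a secreted protease inhibitor typical of reactive astrocytes, was at 1.41, 1.96 and 3.15 under Zoloft, 1.47, 4.29 and 0.23 in TBI and -4.95 and -2.69 in Sham. The Zoloft and TBI ranges overlapped, and neither reached Sham. Its rise over Sham was 63.6-fold (limma, adjusted p = 0.0105), and was not called without Sham replicate 1 (log2 difference 4.86, limma, adjusted p = 0.11).

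Timp1, an inhibitor of matrix metalloproteinases, showed a much narrower spread, with 2.10, 1.95 and 3.04 under Zoloft, 2.30, 2.54 and 2.60 in TBI and -3.15 and -1.99 in Sham. It was 30.6-fold higher than in Sham under Zoloft (95% interval 17.2 to 54.2, limma, adjusted p = 5.73e-05), and its difference from TBI was -0.11 with an interval from -0.85 to 0.63. Hspb1, a small heat shock protein, stood at 2.73, 3.13 and 4.52 under Zoloft, 2.77, 3.77 and 2.84 in TBI and -2.48 and -0.86 in Sham, a rise of 5.13 ± 0.54 (limma, adjusted p = 0.00033). Gfap, the main astrocyte filament, was at 2.84, 1.88 and 1.84 under Zoloft, 2.00, 3.07 and 2.90 in TBI and 0.41 and 1.15 in Sham; the Zoloft difference from Sham, 1.41 ± 0.45, did not pass (limma, adjusted p = 0.0846), and that of TBI, 1.88 ± 0.45, did (limma, adjusted p = 0.0142). The direct difference between TBI+Zoloft and TBI in Gfap was -0.47, with an interval from -1.34 to 0.40.

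The promoter of Serpina3n is printed because the gene was among the highest in the Zoloft arrays and its upstream bases hold a match to the STAT motif TTCNNNGAA, the letters to which STAT3 and its relatives bind. The sequence covers the 250 bases before the gene's start in RefSeq's rat annotation (build GRCr8, chr6:129088142-129088391, + strand), 5′ to 3′, with the match in capitals, starting 123 bases before the start.
Serpina3n: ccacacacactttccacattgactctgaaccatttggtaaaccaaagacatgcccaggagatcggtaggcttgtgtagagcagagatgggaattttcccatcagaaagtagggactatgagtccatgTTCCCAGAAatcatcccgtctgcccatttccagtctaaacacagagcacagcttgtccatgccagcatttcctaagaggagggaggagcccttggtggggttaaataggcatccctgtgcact
The motif was searched on both strands. It stood in 3 of the 18 promoters found for the astrocyte reactivity list (16.7%), and in 488 of 8375 promoters of the genes tested (5.83%). In the cytokines and STAT3 signalling list it stood in 1 of 20 (5%). Another motif, TGANTCA of AP-1, stood in 3 of the same 18 promoters (16.7%) and in 383 of the 8375 (4.57%). A match describes the letters and does not show that a factor bound.

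Chemokines and their receptors, the signals that draw leukocytes into tissue, held 10 genes that rose and none that fell among 22 measured in TBI+Zoloft vs. Sham, with a median of 2.24. In TBI vs. Sham 11 rose, with a median of 1.72, and 0 were called between TBI+Zoloft and TBI (median 0.23). Ccl2, the main monocyte attractant, was at 0.24, -0.10 and 3.11 under Zoloft, 0.80, 0.36 and -0.84 in TBI and -7.12 and -5.11 in Sham, where only replicate 2 was above background. Its difference from Sham was 7.2 ± 0.86 (limma, adjusted p = 0.000785), and was still called without Zoloft replicate 3 (limma, adjusted p = 0.00054). Ccl7, a related monocyte attractant, was at -0.86, -0.98 and 2.14 under Zoloft and -0.41, -0.59 and -1.65 in TBI, and was not well above background on either Sham array, so that its level was at least 88.0-fold higher than in Sham under Zoloft and at least 44.5-fold in TBI. For both genes Zoloft replicates 1 and 2 lay within the TBI range and replicate 3 above it.

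Cxcl1, which attracts neutrophils, was not well above background in Sham and was at least 10.5-fold higher under Zoloft (limma, adjusted p = 0.00092). Cxcl13, a B cell attractant, was at least 4.56-fold higher under Zoloft and at least 7.13-fold in TBI. A bound of this kind sets the mean of the brighter group against the lowest signal that counted as above background in the other, and is given in place of a fold wherever no array of a group was above background. Of the chemokines and their receptors, 7 rose without Sham replicate 1, 9 without Sham replicate 2 and 9 without Zoloft replicate 3. With normexp background correction 6 rose, with a median of 0.75, and among probes above background on every array compared 3 rose, with a median of 0.35.

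Among genes of microglia and macrophages, the resident and invading phagocytes, 16 of 32 rose and none fell in TBI+Zoloft vs. Sham, with a median of 1.17. The TBI vs. Sham values were 18 and 1.16, and 0 were called between TBI+Zoloft and TBI (median -0.07). Msr1, a scavenger receptor of macrophages, was at -3.36, -3.53 and -3.61 under Zoloft and -3.67, -4.74 and -4.50 in TBI, and was not well above background in Sham. All 3 Zoloft arrays lay above all 3 TBI arrays for this gene. It was at least 7.26-fold higher than in Sham under Zoloft and at least 4.15-fold in TBI, and its difference from TBI, 0.81 ± 0.27, did not pass (limma, adjusted p = 0.162).

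Lgals3, a lectin of phagocytosing cells, was at 1.67, 0.80 and 1.11 under Zoloft, 1.82, 1.72 and 1.40 in TBI and -3.04 and -2.14 in Sham. It was 13.8-fold higher than in Sham under Zoloft (limma, adjusted p = 0.00016). Cd14, the lipopolysaccharide co-receptor, was at -0.10, -0.08 and 1.14 under Zoloft, -0.41, 0.49 and -0.50 in TBI and -4.54 and -2.71 in Sham, a rise of 15.4-fold (limma, adjusted p = 0.00107). Spp1 (osteopontin), at 1.05, -1.90 and 0.18 under Zoloft and 1.88, 1.34 and 0.42 in TBI, was at -6.31 and -2.03 in Sham, so that the lowest Zoloft array lay just above the higher Sham array. Its difference of 3.94 ± 1.04 was called (limma, adjusted p = 0.0453), was 1.80 without Sham replicate 1 (limma, adjusted p = 0.33), and was not called without Zoloft replicate 1 or 3 either (limma, adjusted p = 0.11 and 0.093). Aif1 and Itgam, both general microglial genes, differed by 0.55 and 1.23, of which Itgam passed. The list's 16 calls became 6 without Sham replicate 1, 13 without Sham replicate 2 and 12 without Zoloft replicate 3.

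Of the cytokines and STAT3 signalling genes, 14 of 24 rose and 1 fell in TBI+Zoloft vs. Sham (median 1.02), 12 rose in TBI vs. Sham (median 0.98), and 0 passed between TBI+Zoloft and TBI (median 0.06). Il1rn and Il1r2, a secreted antagonist and a decoy receptor that both limit interleukin 1, were not well above background in Sham. They were at least 7.56-fold and at least 12.1-fold higher under Zoloft, and Il1r2 stood at -4.22, -3.45 and -0.60 on the 3 Zoloft arrays against -3.79, -3.31 and -3.80 in TBI. Tnfrsf12a, the receptor of the cytokine TWEAK, was at -0.84, -0.87 and 0.85 under Zoloft, -0.72, 0.15 and -0.46 in TBI and -4.21 and -3.56 in Sham, a rise of 12.1-fold (limma, adjusted p = 0.00157). Stat3 itself, the transcription factor downstream of interleukin 6, was at -1.80, -1.76 and -0.94 under Zoloft, -2.28, -1.54 and -1.81 in TBI and -2.85 and -2.52 in Sham. The Zoloft difference of 1.18 ± 0.27 was called (limma, adjusted p = 0.0246), the TBI difference of 0.81 ± 0.27 was not (limma, adjusted p = 0.0617), and between TBI+Zoloft and TBI the difference was 0.38 with an interval from -0.15 to 0.90.

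Il1a, encoding interleukin 1 alpha, was the member that fell. It was chosen after its values were seen. It was above background on both Sham arrays, at -5.68 and -5.61, on 1 of 3 TBI arrays and on none of the Zoloft arrays, and was at least 1.58-fold lower under Zoloft than in Sham (limma, adjusted p = 0.00814). The number of rising cytokines and STAT3 signalling genes was 2 without Sham replicate 1, 8 without Sham replicate 2 and 11 without Zoloft replicate 3.

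Complement, the cascade that tags debris and synapses for removal, rose at 8 of 18 genes under Zoloft (median 0.98) and at 10 in TBI (median 0.97), with 0 called between the groups (median 0.03). C3, its central component, was at 0.63, 0.67 and 0.25 under Zoloft, 0.36, 0.83 and 0.26 in TBI and -2.02 and -1.29 in Sham. The injured arrays overlapped completely and were separate from Sham, with a 4.51-fold rise under Zoloft (limma, adjusted p = 0.000668). Serping1, the inhibitor of the first component, rose 6.93-fold, and C1r and C1s, its proteases, rose by 2.23 each. C1qa, the recognition subunit that microglia make, differed by 0.55 ± 0.27 and did not pass (limma, adjusted p = 0.248). Without Sham replicate 1, 4 complement genes were called, and 6 without Sham replicate 2 or without Zoloft replicate 3.

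Genes of antigen presentation, which load and display peptides, rose at 5 of 15 under Zoloft (median 1.06) and at 7 of 15 in TBI (median 1.2), with 0 called between them (median 0.04). RT1-Da, a class II chain, was at -1.87, -1.95 and -2.25 under Zoloft, -1.73, -2.80 and -1.57 in TBI and -4.98 and -4.53 in Sham, a 6.63-fold rise (limma, adjusted p = 0.0159). Cd74, the chain that guides class II proteins, rose 4.45-fold and Psmb9, an immunoproteasome subunit, 3.37-fold. B2m, the shared light chain of class I, differed by 0.39 and did not pass. Without Sham replicate 1 the 5 antigen presentation calls fell to 1, and without Sham replicate 2 to 3.

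**Figure D2:**
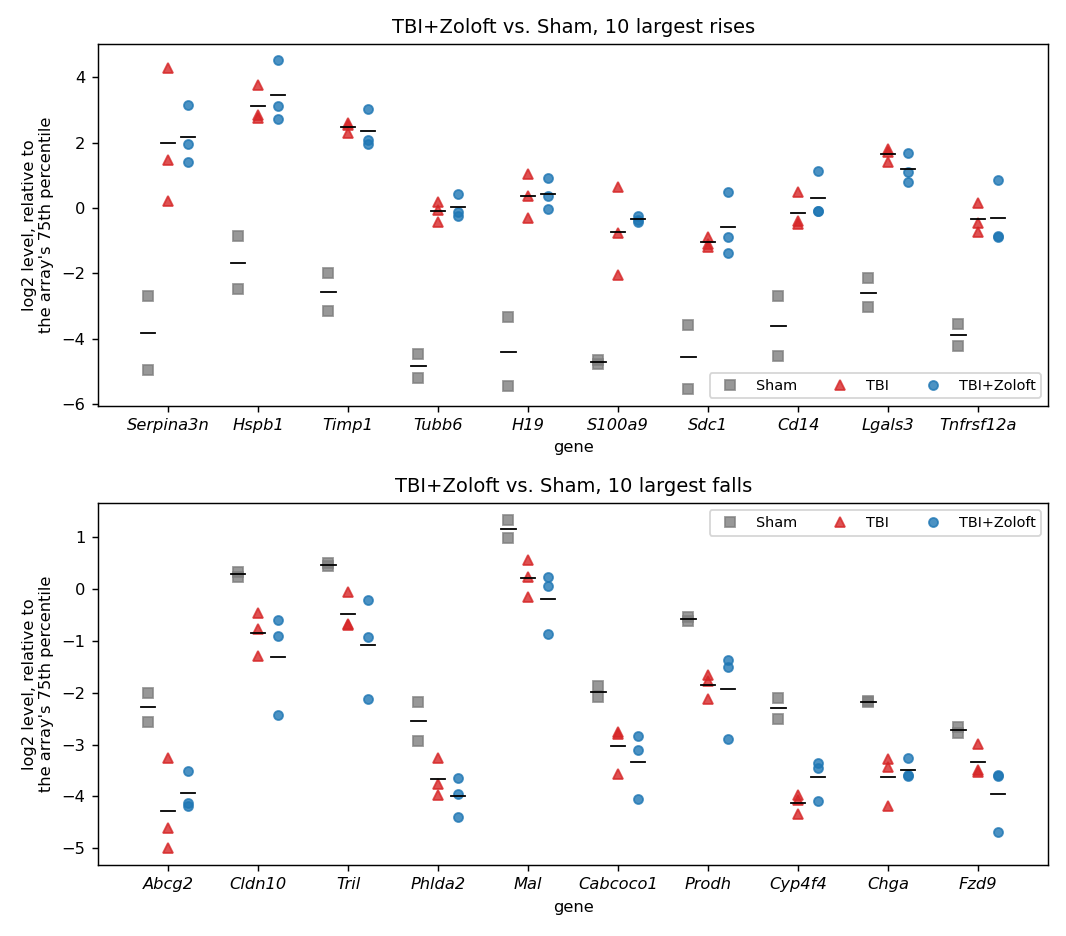
Log2 level (y axis, relative to the array's 75th percentile) of the genes with the largest rises and the largest falls in TBI+Zoloft vs. Sham (x axis), with 1 point per array of Sham, TBI and TBI+Zoloft and a bar at the group mean. For Timp1 the 3 Zoloft arrays sit between 1.95 and 3.04 and both Sham arrays below -1.9, and for Cldn10 and Tril Zoloft replicate 3 is the lowest array.

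The interferon response list holds genes that interferons raise. In TBI+Zoloft vs. Sham 11 of 27 rose and none fell, with a median of 0.97. In TBI vs. Sham 9 rose and 1 fell, with a median of 0.74, and between TBI+Zoloft and TBI 1 gene rose, with a median of -0.00. Ifitm3, a membrane protein that blocks virus entry, was at -0.41, -0.67 and 0.39 under Zoloft, -0.28, -0.15 and -0.61 in TBI and -3.86 and -2.30 in Sham, a 7.21-fold rise (limma, adjusted p = 0.00248). Gbp2, an interferon-induced GTPase also raised in reactive astrocytes, was at -0.10, -0.55 and 0.59 under Zoloft, 0.12, -0.42 and 0.38 in TBI and -3.19 and -2.08 in Sham, a 6.13-fold rise (limma, adjusted p = 0.00209). For both genes the Zoloft and TBI arrays were interleaved and lay above Sham.

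Irf7, a regulator that amplifies interferon production, was at -3.08, -3.06 and -2.98 under Zoloft, -2.60, -3.35 and -2.79 in TBI and -4.52 and -3.54 in Sham. Its Zoloft difference from Sham, 0.99 ± 0.29, missed the threshold (limma, adjusted p = 0.0688), its TBI difference of 1.12 ± 0.29 passed (limma, adjusted p = 0.0228), and between TBI+Zoloft and TBI the difference was -0.12 with an interval from -0.70 to 0.45. Igtp, an interferon-induced GTPase that acts against parasites inside cells, ran the other way: it was at 2.76 and 2.53 in Sham, 1.25, 1.56 and 1.61 in TBI and 2.17, 2.15 and 2.48 under Zoloft. The Zoloft arrays lay between both other groups with no overlap. Igtp was lower in TBI than in Sham by -1.17 ± 0.18 (limma, adjusted p = 0.00131) and higher under Zoloft than in TBI by 0.79 ± 0.16 (limma, adjusted p = 0.0356). The 11 rises of the interferon response list became 3 without Sham replicate 1, 8 without Sham replicate 2 and 9 without Zoloft replicate 3.

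The promoters of 3 of these genes are printed because they hold the interferon response element, the letters TTTC repeated after a gap of 2 bases on either strand, that interferon regulatory factors and STAT complexes recognise. Each line gives the 250 bases before the RefSeq start, 5′ to 3′, in build GRCr8. Gbp2 lies at chr2:234005477-234005726 (+ strand), Ifitm3 at chr1:205541759-205542008 (- strand) and Irf7 at chr1:205800024-205800273 (- strand). Capitals mark the element in each line. In Gbp2 they also mark a match to the AP-1 motif TGANTCA, and in Ifitm3 a match to AP-1 and one to the STAT motif TTCNNNGAA.
Gbp2: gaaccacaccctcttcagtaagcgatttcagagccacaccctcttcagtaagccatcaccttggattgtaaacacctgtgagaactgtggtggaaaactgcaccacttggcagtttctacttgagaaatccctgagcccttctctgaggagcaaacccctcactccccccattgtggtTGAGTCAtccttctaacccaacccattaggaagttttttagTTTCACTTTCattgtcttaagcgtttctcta
Ifitm3: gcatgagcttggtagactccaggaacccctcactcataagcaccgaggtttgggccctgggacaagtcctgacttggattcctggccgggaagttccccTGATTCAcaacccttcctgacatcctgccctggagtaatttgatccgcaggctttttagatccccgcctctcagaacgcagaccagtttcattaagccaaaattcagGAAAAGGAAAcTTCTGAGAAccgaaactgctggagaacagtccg
Irf7: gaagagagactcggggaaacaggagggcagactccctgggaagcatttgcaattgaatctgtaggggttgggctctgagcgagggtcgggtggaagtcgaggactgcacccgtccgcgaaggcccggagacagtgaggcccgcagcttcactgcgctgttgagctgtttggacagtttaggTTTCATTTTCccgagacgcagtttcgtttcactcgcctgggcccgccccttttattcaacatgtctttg
The element starts 31 bases before the start in Gbp2, 44 in Ifitm3 and 69 in Irf7. It stood in 16 of the 20 promoters found for the interferon response list (80%) and in 218 of 8375 promoters of the genes tested (2.60%), or 902 of 27457 promoters of the whole RefSeq table (3.29%). The STAT motif stood in 9 of the same 20 (45%). Gbp2 and Ifitm3 rose under Zoloft and Irf7 did not pass. All 3 were printed because they hold the element, so that they cannot show whether it goes with the calls.

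Proteolysis and matrix genes, which open and rebuild the tissue scaffold, rose at 10 of 30 and fell at 1 under Zoloft (median 1.14), and rose at 12 and fell at 1 in TBI (median 1.07), with 0 called between the groups (median -0.07). Mmp19, a metalloproteinase, was above background on 2 of 3 Zoloft arrays, all 3 TBI arrays and neither Sham array, at -5.32, -5.41 and -5.46 under Zoloft and -4.78, -4.72 and -5.00 in TBI. All Zoloft arrays lay below all TBI arrays, by -0.56 ± 0.20 in the mean, which did not pass (limma, adjusted p = 0.184). Adamts1, a protease of matrix proteoglycans, rose by 2.90 ± 0.56 (limma, adjusted p = 0.0122). The proteolysis and matrix list kept 3 rises without Sham replicate 1, 5 without Sham replicate 2 and 8 without Zoloft replicate 3.

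Axon growth and regeneration genes, raised in neurons with cut processes, rose at 6 of 20 and fell at 1 under Zoloft (median 0.78) and rose at 9 in TBI (median 0.73). None passed between TBI+Zoloft and TBI (0 of 20, limma, median -0.10). Tubb6, a tubulin of growing processes, was the most precise large rise: -0.24, -0.11 and 0.42 under Zoloft, -0.06, 0.19 and -0.42 in TBI and -5.21 and -4.48 in Sham. It was 29.2-fold higher than in Sham (95% interval 19.9 to 42.6, limma, adjusted p = 2.71e-06), and its difference from TBI was 0.12 with an interval from -0.37 to 0.61. Atf3, a transcription factor switched on by axon injury, rose 5.90-fold, Gadd45a, a DNA damage response gene, 5.32-fold and Ecel1, a peptidase of injured neurons, 4.42-fold. Gap43, a growth cone protein, differed by 0.42 and did not pass. Without Sham replicate 1, 3 of the axon growth and regeneration genes rose.

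The calpains, caspases and Bcl-2 family, proteases and regulators of cell death, rose at 8 of 24 under Zoloft (median 0.56) and at 9 in TBI, where 1 also fell (median 0.54), with 0 called between the groups (median 0.04). Capn2, a calcium-activated protease of injured neurons, was at 0.72, 0.45 and 0.66 under Zoloft, 0.51, 1.0 and 0.81 in TBI and -0.02 and -0.22 in Sham, a rise of 1.65-fold (limma, adjusted p = 0.0275). Casp4, an inflammatory caspase, rose by 1.83 ± 0.24 (limma, adjusted p = 0.00151). The changes were thus smaller than those of the inflammatory lists, and the 8 calls became 1 without Sham replicate 1, 3 without Sham replicate 2 and 6 without Zoloft replicate 3.

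Stress-protein genes moved at few members, where 507 of all 10220 genes were higher under Zoloft than in Sham and 947 in TBI. Of 20 heat shock proteins and chaperones, 2 rose under Zoloft, Hspb1 and Hspb8, and the median was 0.08, against 3 rises and a median of 0.22 in TBI. Of the 21 Nrf2 targets and metallothioneins, 4 rose under Zoloft and 4 in TBI, with medians of 0.32 and 0.34. Mt1, a zinc-binding metallothionein, was at 2.79, 3.19 and 4.87 under Zoloft, 2.48, 3.52 and 2.52 in TBI and 0.94 and 1.24 in Sham, a 5.76-fold rise (limma, adjusted p = 0.0174). Hmox1, heme oxygenase 1, was at -2.42, -2.11 and 0.28 under Zoloft and -4.18 and -3.88 in Sham, and its rise of 2.61 ± 0.70 (limma, adjusted p = 0.0472) was 1.76 and not called without Zoloft replicate 3 (limma, adjusted p = 0.063), nor called without Zoloft replicate 2 or either Sham array (limma, adjusted p = 0.052, 0.20 and 0.16). Sod2, the mitochondrial superoxide dismutase, rose by 0.70 ± 0.18 under Zoloft and differed by 0.36 in TBI. No gene of either list passed between TBI+Zoloft and TBI by limma.

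H19, a noncoding RNA transcribed beside Igf2, was at -0.02, 0.38 and 0.92 under Zoloft, -0.30, 1.04 and 0.38 in TBI and -5.46 and -3.35 in Sham, a 28.4-fold rise (limma, adjusted p = 0.00035). With Igfbp2 and Igfbp3, binding proteins of the growth factors, it made up the 3 rises among 11 genes of the insulin-like growth factor system, and the same number rose in TBI. Igfbp2 was at 2.48, 2.43 and 1.85 under Zoloft, 1.42, 2.02 and 1.69 in TBI and -0.68 and -0.03 in Sham, a 6.07-fold rise (limma, adjusted p = 0.00151). Igf2, a growth factor made by meninges and choroid plexus, was at 1.48, 1.80 and -0.82 under Zoloft and -0.93 and 0.30 in Sham and did not pass. Among 18 genes of the endothelial barrier and adhesion list 3 rose under Zoloft, Icam1, Pecam1 and Plvap (median 0.53), and 2 rose and 1 fell in TBI (median 0.41). Plvap, a diaphragm protein of leaky vessels, was at -3.08, -3.10 and -3.0 under Zoloft, -4.44, -3.74 and -3.96 in TBI and -4.37 and -3.82 in Sham, above every TBI and Sham array; its difference from TBI, 0.99 ± 0.22, just missed the threshold (limma, adjusted p = 0.0532).

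Further large rises over Sham fell outside these lists. Slpi, a protease inhibitor secreted by neutrophils and epithelia, was not well above background in Sham and at least 27.8-fold higher under Zoloft. Gprc5a, an orphan receptor, was at least 13.3-fold higher, at -3.57, -3.53 and -0.76 under Zoloft and -3.26, -2.57 and -3.49 in TBI. Sdc1, a cell-surface proteoglycan, rose 15.7-fold. S100a8 and S100a9, the calcium-binding proteins that fill neutrophils, were at -0.92, -0.07 and 0.61 and at -0.43, -0.24 and -0.38 under Zoloft, against -4.70 and -4.93 and -4.79 and -4.65 in Sham. S100a9 rose 20.7-fold (limma, adjusted p = 0.00199) and S100a8 25.7-fold (limma, adjusted p = 0.00362), in TBI 16-fold and 10.1-fold. Of the 9 neutrophil markers, 3 were measured.

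Falls against Sham were smaller than rises. The largest among genes above background on all arrays of both groups were those of Abcg2, a transporter of the vessel wall, at -1.65 ± 0.44 (limma, adjusted p = 0.0482), Cldn10, a claudin, at -1.59 ± 0.42 (limma, adjusted p = 0.0451), and Tril, a Toll-like receptor accessory protein, at -1.56 ± 0.40 (limma, adjusted p = 0.0430). Cldn10 was at -0.59, -0.91 and -2.43 under Zoloft, -1.29, -0.78 and -0.47 in TBI and 0.32 and 0.23 in Sham, and Tril at -0.22, -0.92 and -2.12, -0.70, -0.69 and -0.05, and 0.44 and 0.50. Both lay lower on all 6 injured arrays than in Sham, and replicate 3 was the lowest of the Zoloft arrays. Without it the differences were -1.03 and -1.04 and still called, whereas neither gene was called without Zoloft replicate 2 or either Sham array. Prodh, proline dehydrogenase, fell by 1.34 on the log2 scale, Cyp4f4, a fatty acid hydroxylase, by 1.33 and Chga, chromogranin A of secretory granules, by 1.31. Phlda2 fell by 1.45, Cabcoco1 by 1.35 and Fzd9, a Wnt receptor, by 1.24. Untreated TBI also had lower means than Sham for several of these genes. Abcg2 was 4.01-fold lower in TBI (3.15-fold under Zoloft), Cyp4f4 3.54-fold (2.52-fold) and Chga 2.74-fold (2.48-fold). Cabcoco1 was 2.08-fold lower in TBI (2.55-fold under Zoloft) and Fzd9 1.54-fold (2.37-fold). Hes5, Adrb3 and Meox2 dropped from above background on both Sham arrays to none of the Zoloft arrays. Hes5, a Notch target of neural progenitors, was at least 3.26-fold lower, Adrb3, a beta adrenergic receptor, at least 2.73-fold and Meox2, a homeobox gene of vessels, at least 2.54-fold.

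Neuronal, myelin and metabolic lists moved little, where 157 of all 10220 genes were lower under Zoloft than in Sham and 578 in TBI. Of 22 glutamate receptor genes 1 fell, Dlg4, the scaffold PSD-95 of excitatory synapses, which was at -3.31, -3.30 and -3.32 under Zoloft, -2.80, -3.04 and -2.90 in TBI and -2.71 and -2.74 in Sham. The fall of -0.59 ± 0.13 was called against Sham (limma, adjusted p = 0.0250), and the difference from TBI, -0.40 ± 0.12, was not (limma, adjusted p = 0.129). Gabra5, the hippocampal GABA-A receptor subunit, was 1 of 16 GABA system genes to fall and had the same order, at -2.22, -2.27 and -2.24 under Zoloft, -2.0, -1.91 and -1.75 in TBI and -1.63 and -1.60 in Sham (-0.63 ± 0.12, limma, adjusted p = 0.0125). For both genes every Zoloft array lay below every TBI array, and every TBI array below Sham. Of 31 voltage-gated channels 1 fell, Cacna1b, the N-type calcium channel, by -0.58 ± 0.16, and in TBI vs. Sham 2 fell. The list medians against Sham were -0.33 for glutamate receptors, -0.22 for the GABA system and -0.21 for voltage-gated channels.

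Of 19 genes of myelin and the oligodendrocyte lineage 2 fell under Zoloft (median -0.43) and 2 in TBI (median -0.17). Mal, a proteolipid of myelin, was at 0.23, 0.05 and -0.87 under Zoloft, -0.16, 0.24 and 0.56 in TBI and 0.99 and 1.33 in Sham, a fall of -1.36 ± 0.32 (limma, adjusted p = 0.0303). Gpr17, a receptor of oligodendrocyte precursors, was above background on 1 of 3 Zoloft arrays and fell by -0.82 ± 0.19 (limma, adjusted p = 0.0243). Mbp, the abundant myelin basic protein gene, differed by -0.43 and did not pass. Of 15 homeostatic astrocyte genes 0 passed by limma under Zoloft or in TBI, with medians of -0.21 and -0.43, and of 44 respiratory chain genes 0 passed under Zoloft, with a median of -0.03. Ribosomal proteins were higher than in Sham at 49 of 50 genes under Zoloft, of which 2 passed (median 0.31), and 8 passed in TBI (median 0.36); the count under Zoloft was 14 with the 75th percentile taken over all probes.

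Serotonin genes are of interest because sertraline acts on serotonin uptake. Of 18 genes of the serotonin system 7 were measured, and the transporter gene Slc6a4 was not among them. In TBI+Zoloft vs. Sham 2 rose and 2 fell, beside 507 higher and 157 lower of all 10220 genes. Htr1a, the inhibitory autoreceptor also found on hippocampal pyramidal cells, was at -4.47, -4.41 and -5.59 under Zoloft, -3.88, -4.02 and -4.08 in TBI and -3.74 and -3.53 in Sham. The groups did not overlap, and the Zoloft fall of -1.19 ± 0.28 was called (limma, adjusted p = 0.0267), while its difference from TBI, -0.83 ± 0.25, was not (limma, adjusted p = 0.122). Htr5b, a receptor that rodents express in the hippocampus, was at -1.75, -1.70 and -1.60 under Zoloft, -1.56, -1.48 and -1.95 in TBI and -0.95 and -0.40 in Sham, a fall of -1.01 ± 0.20 (limma, adjusted p = 0.0136) with a difference from TBI of -0.02 and an interval from -0.41 to 0.37.

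Htr3a, the ion-channel serotonin receptor of interneurons, was at -1.62, -1.75 and -1.71 under Zoloft, -2.25, -2.04 and -1.66 in TBI and -2.20 and -3.15 in Sham, a rise of 0.98 ± 0.25 (limma, adjusted p = 0.0431). Htr2b was called higher (limma, adjusted p = 0.0205) but was above background on 1 Zoloft array, 1 TBI array and no Sham array. Maob, which degrades amines in astrocytes, was at -1.15, -1.40 and -1.74 under Zoloft, -1.13, -0.80 and -0.64 in TBI and -0.79 and -0.86 in Sham, and its difference from Sham of -0.60 ± 0.18 did not pass (limma, adjusted p = 0.0760). Maoa and Htr2c differed by -0.05 and 0.59 and did not pass. Without Sham replicate 2, 0 of the serotonin system genes were called by limma, and without Sham replicate 1, 1 rose and 1 fell.

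Neuropeptides and growth factors gave single changes. Trh, thyrotropin-releasing hormone, was at -3.93, -0.10 and 1.39 under Zoloft, -4.63, -2.80 and -2.55 in TBI and -6.52 and -5.64 in Sham, where 1 of 2 arrays was above background. Its difference of 5.20 ± 1.35 was called (limma, adjusted p = 0.0433) and was not called without Zoloft replicate 2, Zoloft replicate 3 or either Sham array (limma, adjusted p = 0.10, 0.098, 0.20 and 0.14). Pnoc, the nociceptin precursor, rose by 1.08 ± 0.25 (limma, adjusted p = 0.0248). Sst, somatostatin of interneurons, was at -0.53, -0.39 and -0.03 under Zoloft, -2.13, -1.11 and -1.02 in TBI and 0.19 and -0.08 in Sham. It was lower in TBI than in Sham by -1.48 ± 0.32 (limma, adjusted p = 0.00847), was not called between TBI+Zoloft and Sham (-0.37 ± 0.32), and its difference between TBI+Zoloft and TBI, 1.1 ± 0.28, did not pass (limma, adjusted p = 0.0780), although all 3 Zoloft arrays lay above all 3 TBI arrays. Gfra1, the receptor of the neurotrophic factor GDNF, rose by 1.78 ± 0.27 (limma, adjusted p = 0.00341). Bdnf, at -3.44, -3.64 and -1.29 under Zoloft and -3.70 and -4.15 in Sham, did not pass, and replicate 3 was the highest of these arrays.

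Immediate early genes, switched on within minutes of activity or stress, were high on 1 Zoloft array. The array medians of the 26 genes, as differences from Sham, were 0.19, 0.19 and 1.52 for Zoloft replicates 1 to 3 and -0.16, 0.20 and 0.36 for TBI. Arc, a gene of synaptic activity, was at -0.67, -1.15 and 2.07 under Zoloft, and Fos at -2.07, -2.54 and 0.04, and neither passed against Sham. Against Sham 3 immediate early genes rose, Fosl1, Atf3 and Myc (median 0.66, and 0.23 without replicate 3), as did 3 in TBI (median 0.06). Between TBI+Zoloft and TBI the Zoloft mean was the higher for 25 of 26, with 0 called by limma (median 0.43, beside 0.00 over all genes, and -0.03 without replicate 3). Of 13 glucocorticoid-responsive genes the Zoloft mean was above the TBI mean for 11, with 0 called (median 0.55, beside 0.00 over all genes). Their array medians, as differences from Sham, were 0.23, 0.25 and 0.52 for Zoloft replicates 1 to 3 and -0.35, 0.23 and -0.34 for TBI. Zoloft replicate 3 was again the highest, and TBI replicate 2 lay close to Zoloft replicates 1 and 2. Against Sham 1 of the 13 rose, Map3k6. Fkbp5, a chaperone of the glucocorticoid receptor, was at -0.65, 0.10 and 0.44 under Zoloft, -1.04, -0.68 and -0.89 in TBI and -0.20 and -0.11 in Sham (0.83 ± 0.22 above TBI, limma, adjusted p = 0.0878).

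In the cell cycle list, genes of DNA replication, mitosis and their control, the calls against Sham dropped most from TBI to TBI+Zoloft, by count, among the lists. The list also holds the cycle inhibitor Cdkn1a, which ran the other way. Cdkn1a was at 0.31, 0.48 and 1.07 under Zoloft, -0.21, 0.14 and 0.13 in TBI and 0.57 and 0.58 in Sham. Of the list's 30 measured genes 19 rose in TBI vs. Sham, with a median of 1.33. In TBI+Zoloft vs. Sham 2 of the 30 rose, Pcna and Rrm2, with a median of 0.81. The difference between TBI+Zoloft and TBI itself was called for 0 genes by limma, with a median of -0.42, and the Zoloft mean lay below the TBI mean for 26 of 30. The array medians show where this came from: 1.29, 0.81 and 0.15 for Zoloft replicates 1, 2 and 3, 1.36, 1.41 and 1.11 for TBI, and -0.20 and 0.20 for Sham. Zoloft replicate 3 was the lowest Zoloft array for 27 of 30 genes and below all TBI arrays for 27 of 30. Without replicate 3, 19 cell cycle genes rose against Sham, the median was 1.11, and the median difference from TBI was 0.00; without Zoloft replicate 1 or 2 none rose and the median was 0.44 or 0.70. The list's count in TBI vs. Sham fell to 2 without Sham replicate 1.

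Mki67, the antigen of dividing cells, was at -2.12, -3.04 and -5.11 under Zoloft, -2.33, -2.10 and -2.77 in TBI and -6.35 and -4.51 in Sham. Zoloft replicate 1 lay within the TBI range, replicate 2 below it and replicate 3 between the Sham arrays. Its difference from Sham was 2.01 ± 0.70 under Zoloft (limma, adjusted p = 0.113) and 3.03 ± 0.70 in TBI (limma, adjusted p = 0.0124), and from TBI it was -1.02 with an interval from -2.38 to 0.34. Rrm2, a subunit of ribonucleotide reductase, was at 0.01, -0.79 and -1.96 under Zoloft, -0.44, -0.15 and -0.89 in TBI and -3.45 and -2.21 in Sham (1.91 ± 0.48, limma, adjusted p = 0.0369). Pcna, the clamp of DNA polymerases, was at 0.69, 0.59 and 0.03 under Zoloft, 0.41, 0.58 and 0.63 in TBI and -0.21 and -0.71 in Sham (0.90 ± 0.21, limma, adjusted p = 0.0275). Ccnd1, cyclin D1, was at -2.32, -2.66 and -3.35 under Zoloft and -1.94, -2.02 and -2.17 in TBI, with all Zoloft arrays the lower, a difference of -0.73 ± 0.28 (limma, adjusted p = 0.229). Zoloft replicate 3 was the lowest Zoloft array for each of these 4 genes.

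**Figure D3:**
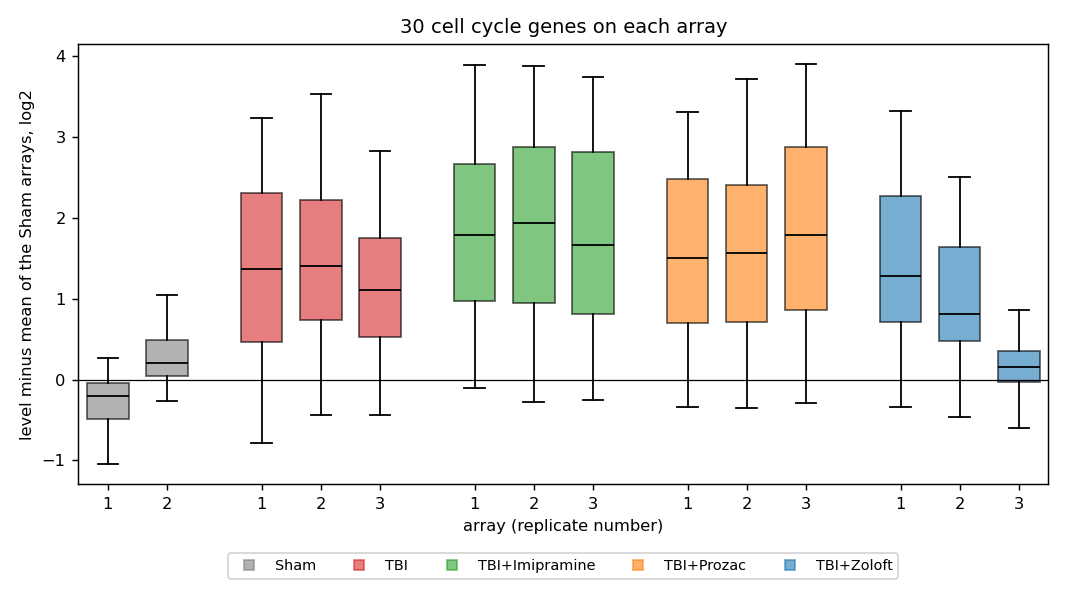
Level of each of 30 cell cycle genes minus the mean of the Sham arrays (log2, y axis) on each array (x axis, by group and replicate number), as boxes from the lower to the upper quartile with a bar at the median and whiskers to the lowest and highest gene. The Zoloft medians are 1.29, 0.81 and 0.15, the TBI medians lie between 1.11 and 1.41, and replicate 3 of Zoloft is the injured array nearest to Sham.

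A gene was taken to lie nearer Sham than in untreated TBI when TBI vs. Sham and TBI+Zoloft vs. TBI were both called, in opposite directions. This rule gave 63 of 10220 genes, 10 raised in TBI and lower under Zoloft and 53 lowered in TBI and higher under Zoloft. Since both contrasts that chose the genes contain the TBI arrays, their differences are a description and carry no test here. The set rests on few arrays. It held 0 genes without Zoloft replicate 3, 3 without Zoloft replicate 2 and 22 without Zoloft replicate 1. It held 5 without TBI replicate 1, 4 without TBI replicate 2, 68 without TBI replicate 3 (39 of them in the set of 63) and 0 with slide as a fixed term. That term rests on Prozac replicate 1 against the other Prozac arrays, which costs precision. Its 0 thus cannot show whether slide had a part. All 63 kept the sign of their TBI+Zoloft vs. TBI difference in each of these fits. In these genes the Zoloft and TBI arrays did not overlap, so that leaving out 1 array could not change that sign. Of the lists above, Igtp of the interferon response and Hes1 of the Notch pathway were members, and no gene of the astrocyte reactivity, chemokine, microglia, cytokine or complement lists was. At 63 of 10220 genes, lists of their size would hold few members or none, so that this absence is no result about those lists.

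The 10 raised genes, named here after their values were seen, were Lrp12, Armc6, Mcat, Elp6, Metap1d, Cct5, Jagn1, Wdr18, Dhrs7b and Eif3g, and none was called between TBI+Zoloft and Sham. The rule gave 0 raised genes without TBI replicate 1, TBI replicate 2 or Zoloft replicate 3. It gave 1 without Zoloft replicate 2, 5 without Zoloft replicate 1, 5 without TBI replicate 3 and 0 with 3 groups in the fit. With quantile normalization it gave 99 and with normexp 88. As background, Eif3g is a translation initiation factor subunit, Cct5 a chaperonin subunit, Metap1d a mitochondrial methionine aminopeptidase and Elp6 a subunit of the Elongator complex that modifies transfer RNA. Eif3g was at -1.24, -1.22 and -1.33 under Zoloft, -0.75, -0.66 and -0.76 in TBI and -1.25 and -1.48 in Sham. Cct5 was at -0.60, -0.77 and -1.05 under Zoloft, -0.23, 0.07 and -0.19 in TBI and -0.63 and -0.75 in Sham. In both the Zoloft arrays overlapped Sham and not TBI. The differences from TBI ran from -0.54 to -1.18 over the 10 genes, and for 10 of 10 all 3 Zoloft arrays lay below all 9 other injured arrays, as they did for 567 of all 10220 genes (5.55%). The rule set the Zoloft means against the TBI means, so that part of this separation was fixed by the choice of genes. Against the 6 imipramine and Prozac arrays alone, the Zoloft arrays were lower for 10 of 10 and for 1417 of all genes (13.9%). The imipramine and Prozac arrays entered the rule only through the pooled spread and the probe filter. The genes were chosen for low Zoloft values, so that this count too is a description and no independent support. For Lrp12, an endocytic receptor relative, no Zoloft array was above background.

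**Figure D4:**
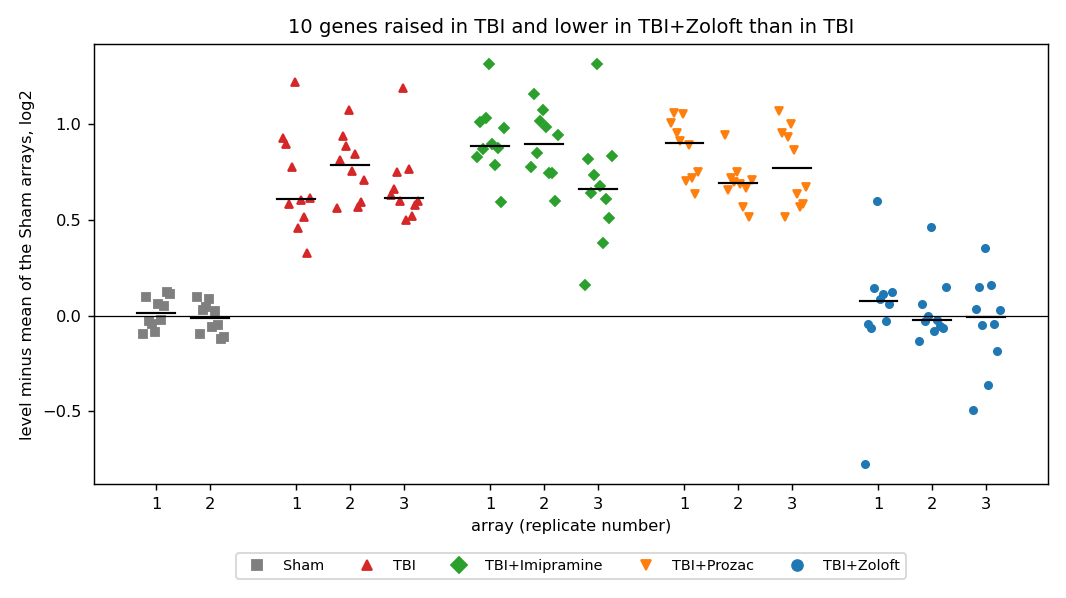
Level minus the mean of the Sham arrays (log2, y axis) on each array (x axis, by group and replicate number) of the 10 genes raised in TBI and lower in TBI+Zoloft than in TBI, with 1 point per gene and a bar at the median, for all 14 arrays. For each gene the 3 Zoloft arrays lie below all 9 other injured arrays, and the Zoloft medians lie near the Sham level.

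The 53 genes lowered in TBI and higher under Zoloft were mostly dim. Their median log2 level was -4.21 beside -1.81 over all genes, 46 of 53 lay below the median of all genes, and 29 of 53 (54.7%) were above background on all 14 arrays, beside 85.1% of all genes. No TBI array was above background for 14 of them. By symbol, 8 of 53 (15.1%) were olfactory or vomeronasal receptors, beside 30 of 10220 genes tested (0.294%), and 3 (5.66%) were keratins or keratin-associated proteins, beside 11 of all tested (0.108%); these kinds were counted after the symbols were seen. The Zoloft mean stayed below the Sham mean for 49 of 53, with a median difference from Sham of -0.45 beside -1.44 for TBI, and 8 were still called lower than Sham.

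Some members with a known part in neurons were picked after their values were seen. Nlgn2, a neuroligin of inhibitory synapses, was at -0.21, -0.32 and -0.04 under Zoloft, -1.11, -0.67 and -0.81 in TBI and -0.17 and -0.20 in Sham. Cacna1i, a T-type calcium channel, was at -1.30, -1.28 and -0.97 under Zoloft, -1.96, -1.79 and -1.78 in TBI and -0.75 and -0.65 in Sham. Nlgn2 thus overlapped Sham under Zoloft, whereas Cacna1i lay between the groups. Adra2b, an adrenergic receptor, was at -4.39, -4.29 and -3.86 under Zoloft, -5.36, -5.01 and -5.02 in TBI and -3.50 and -3.21 in Sham, and was among those still called below Sham (-0.83 ± 0.19, limma, adjusted p = 0.0250).

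Hes1, a Notch target and transcriptional repressor, had the largest TBI+Zoloft vs. TBI difference of the set. It was above background on all 3 Zoloft arrays, at -5.29, -5.06 and -5.27, and on none of the TBI or Sham arrays, and was at least 2.04-fold higher under Zoloft than in TBI (limma, adjusted p = 0.0236). Its TBI vs. Sham call sets dim values against each other, so that no direction from Sham is given. Fgf17, a fibroblast growth factor, was at -6.05, -5.26 and -5.28 under Zoloft, not well above background in TBI, and at -5.35 and -5.24 in Sham. Gsta5, a glutathione transferase, was at -4.05, -4.17 and -4.37 under Zoloft, -6.06, -5.21 and -5.26 in TBI and -3.52 and -3.28 in Sham, between both groups. Tob1, a repressor of proliferation, was above background on both Sham arrays and on no TBI or Zoloft array, so that its higher value under Zoloft is a difference between dim spots. The rule also took Cox6c-ps1, Gapdh-ps1, Lce1e, Hormad2, Or4b1 and Or10g9b, of which the first 2 are pseudogenes named for abundant transcripts and may share their signal.

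The arrays of the other drugs did not all part from TBI at these 53 genes. On the 3 imipramine arrays 51, 47 and 50 of 53 genes lay nearer the Zoloft mean than the TBI mean, on Prozac replicates 2 and 3, 33 and 46, and on Prozac replicate 1, the drug array that shared the slide of the TBI arrays, 16. These imipramine and Prozac arrays entered the rule only through the pooled spread and the probe filter. The 75th percentile signal, by which each array was scaled, was 1446, 1323 and 1475 on the Zoloft arrays, 1404 and 1302 on the Sham arrays, 2228, 1698 and 1465 on the TBI arrays, 1905, 2053 and 1575 on the imipramine arrays and 1861, 1946 and 1818 on the Prozac arrays. TBI replicate 3 lay within the Zoloft range, and the imipramine arrays lay above it. The part of this signal and of the slide in the dim genes of the set was not tested.

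Few genes lay beyond TBI, called in the same direction against TBI and against Sham. Cdh23, a cadherin, was at -3.69, -4.08 and -3.74 under Zoloft, above background on 1 of 3 TBI arrays and 1 of 2 Sham arrays, and higher than in TBI by 2.53 ± 0.37 (limma, adjusted p = 0.0149) and than in Sham by 1.59 ± 0.41 (limma, adjusted p = 0.0423). Cbr4, a mitochondrial carbonyl reductase, was at -4.75, -4.66 and -4.98 under Zoloft, -4.23, -4.03 and -3.96 in TBI and -3.75 and -4.05 in Sham, the lowest group without overlap, by -0.72 ± 0.16 from TBI (limma, adjusted p = 0.0462) and -0.90 ± 0.18 from Sham (limma, adjusted p = 0.0126). Ctbs, a lysosomal chitobiase, was the 1 lysosome gene of 32 called between TBI+Zoloft and TBI. It was at -4.33, -4.59 and -4.94 under Zoloft, -3.58, -2.64 and -2.76 in TBI and -3.82 and -3.14 in Sham, lower than TBI by -1.63 ± 0.32 (limma, adjusted p = 0.0327) and than Sham by -1.14 ± 0.35, which did not pass (limma, adjusted p = 0.0791). Of the other lysosome genes 5 rose against Sham under Zoloft and 6 in TBI.

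Of 12 hippocampal neuron markers 10 were measured. All 10 were above background on each Sham, TBI and Zoloft array but TBI replicate 1, where 9 were. Their summed linear levels were 17.3, 14.6 and 18.3 on the Zoloft arrays, 14.8, 16.8 and 19.6 on the TBI arrays and 18.6 and 20.2 on the Sham arrays, where 1 is the array's 75th percentile. Of the 10, Neurod6, a transcription factor of pyramidal cells, fell under Zoloft, at 0.69, 0.80 and 0.63 against 1.14, 1.24 and 1.12 in TBI and 1.32 and 1.41 in Sham (-0.65 ± 0.13, limma, adjusted p = 0.0122). Choroid plexus markers varied most between arrays. The summed level of the 3 of 9 that were measured, Ttr, Folr1 and Aqp1, was 69.4, 101 and 1.77 on Zoloft replicates 1 to 3, 0.669, 1.92 and 28.7 in TBI and 0.592 and 29.2 in Sham. None passed, and their levels were high on the Zoloft arrays where Igf2 was also high. The summed level of 8 markers of meninges and fibroblasts was 5.01, 4.64 and 1.51 under Zoloft and 1.51 and 2.29 in Sham. The 5 measured of 7 blood markers summed to 52.9, 93.6 and 55.1 under Zoloft, 41.8, 46.9 and 52.5 in TBI and 45.7 and 60.6 in Sham, and none of them passed. Neutrophil markers summed to 1.36, 1.87 and 2.35 under Zoloft, 1.02, 2.76 and 0.475 in TBI and 0.106 and 0.129 in Sham. Lymphocyte markers, 3 of 9 measured, summed to less than 0.1 on each of these arrays. The part of choroid plexus, meninges, blood and invading neutrophils in the changes of other genes was not tested.

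**Figure D5:**
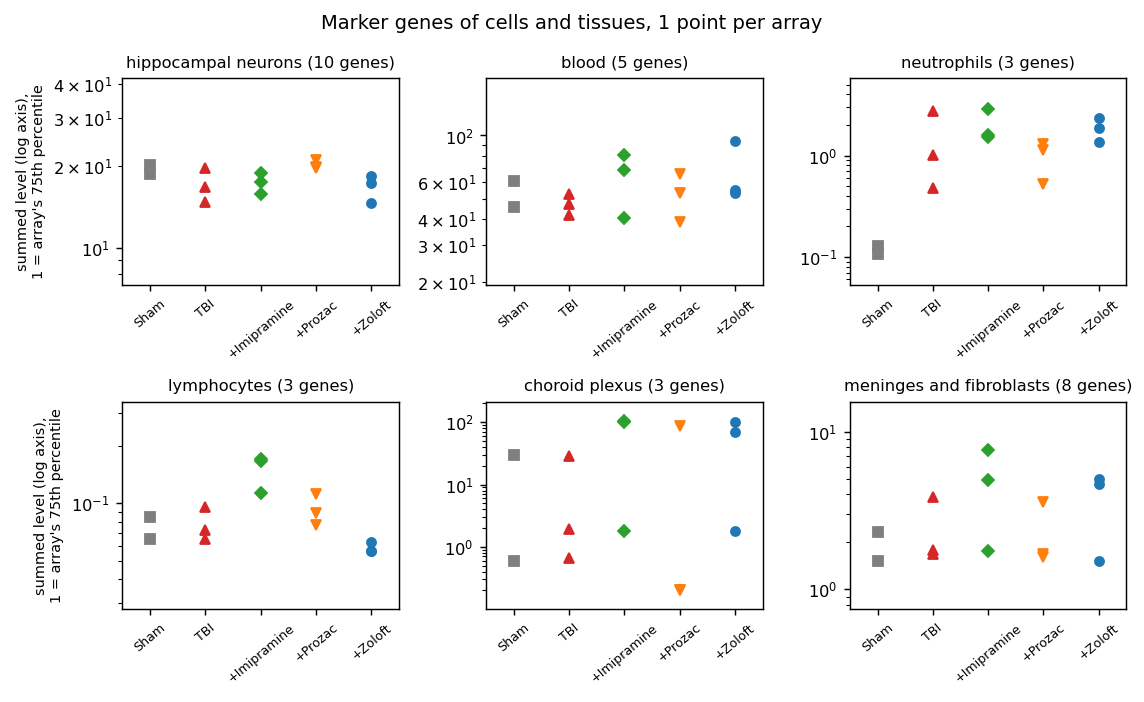
Summed level of the marker genes of each cell type or tissue (y axis, log scale, 1 = the array's 75th percentile) by group (x axis), with 1 point per array. Choroid plexus markers reach 69.4 and 101 on 2 Zoloft arrays and 1.77 on the third, and neutrophil markers lie above 0.4 on all TBI and Zoloft arrays and at 0.106 and 0.129 in Sham.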

How the data were processed

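Whole-hippocampus RNA of 14 rats was measured on Agilent rat gene expression arrays of 1 colour; groups and replicate numbers came from the sample titles. The deposited files hold each spot's brightness as intensity on a linear scale, background-subtracted by the authors with Agilent Feature Extraction 11.5.1.1, and, as 0 or 1 per spot per the file headers, flags of other kinds for being well above background, an outlier or saturated; no probe was saturated here. The deposited series table holds the authors' own processed intensity of the same arrays and served as an alternative. The miRNA arrays were not used here.

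Control spots and outlier-flagged spots were dropped, and the remaining processed signals were averaged per probe. A probe was above background on an array when over 0.5 of its spots were. Values were scaled within arrays to the 75th percentile over such probes, as the study's methods state, and taken to log2. A probe was kept if all arrays of some group had it above background, 17322 of 30367; arrays had between 14676 and 18196 probes above background, and 71 kept probes lacked a value on some array. With 2 Sham arrays and 3 of each other group, the number of arrays limits precision, and p-values measure the spread between these arrays. All 14 arrays of 5 groups entered 1 linear model (limma 3.58.1, its lmFit and eBayes steps, under R 4.3.3; two-sided, Benjamini-Hochberg over the kept probes, threshold 0.05); the study's methods used a t-test, which is an alternative. The procedure was tested on simulated data with known differences. Symbols came from the RefSeq rat table (GRCr8), which matched 18643 probes, 11902 of them kept. A gene is its kept probe with the highest mean; 1554 genes had several kept probes, none of which were called in both directions. Promoters came from RefSeq in the same build and were read with Python 3.11.15.

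The comparison, its gene lists and its named genes were chosen with earlier results of these data known. Named genes were the 10 highest and 10 lowest called genes without overlap between TBI+Zoloft and Sham, the 5 upward and 3 downward genes with the largest bounds, the first 2 members and up to 4 called members of each list in each comparison, the 10 with the largest difference nearer Sham, the 6 beyond TBI (2 were found), and all measured serotonin genes; others are marked as chosen after their values were seen, and a few genes that the rule named are not reported here. Alternatives were normexp (on median signals, since mean signals were not in the files used), quantile normalization, the percentile over all probes, series-table values, no filter, kept outlier spots, a replicate block, a fit of 3 groups, slide as a random or fixed block, a stricter filter, each array left out, and the methods' t-test.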

Additional observations from a re-analysis of the deposited data

How the results depend on the processing

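The Zoloft calls rest on 2 Sham arrays that share a slide with no other group. Counts moved widely, and the balance of higher and lower calls in TBI+Zoloft vs. Sham turned from 720 and 311 to 724 and 847 with normexp. No called difference of a named gene changed sign under the alternatives run, whereas 370 of 9500 values did, all of them list medians or uncalled differences. TBI+Zoloft vs. Sham (1031 probes), TBI+Zoloft vs. TBI (239), TBI vs. Sham (2879) and the nearer-Sham genes (63) became, in that order, 1571, 697, 4496 and 220 with normexp, 2178, 803, 4467 and 228 with quantile normalization, 2118, 824, 4446 and 232 with the percentile over all probes, 2074, 805, 4392 and 229 with series-table values, 520, 22, 1916 and 2 with no filter on dim probes, and 420, 68, 1511 and 8 with 3 groups in the fit. Of the 63 genes, 44 were shared with the set under normexp. The fixed slide term, possible for TBI+Zoloft vs. TBI alone, left 2 probes and 0 nearer-Sham genes. It rests on Prozac replicate 1 against Prozac replicates 2 and 3, the only group on both slides, which costs precision. This drop thus cannot show whether slide had a part. The random slide term gave 703 probes and 180 genes, and the stricter filter 40 genes. Each array left out in turn gave 232 to 955, 1 to 231, 1268 to 2982 and 0 to 68. The lowest values came without Sham replicate 1, Zoloft replicate 3, Sham replicate 1 and Zoloft replicate 3; TBI replicate 2 took TBI vs. Sham to 1902. The methods' t-test, unadjusted and with its fold limit, gave 2279, 1407 and 3031 probes, and 0 in each comparison after Benjamini-Hochberg adjustment. Deviations of same-numbered arrays correlated from -0.192 to 0.0492, and those of other pairs from -0.191 to 0.193. With 2 or 3 arrays per group, these values cannot settle whether the numbers pair rats. A replicate block gave 647, 252, 2388 and 66. The cause of these shifts was not tested. Signal near background limits the dim genes.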
